A study of Sus scrofa with 2 samples.

Results

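The genes described here encode the enzymes that remove reactive oxygen species and keep cellular thiols reduced: superoxide dismutases, catalase and peroxidases, the glutathione and thioredoxin systems, glutathione transferases, and the regulator NRF2 (gene NFE2L2) with its inhibitor KEAP1 and its targets. The 43 genes were chosen by name and function, and an entry was taken where its deposited gene name was one of the 43. Of the 34570 genes in each table, 34 were such entries, all of them mRNAs. Of these, 32 had a mean value of at least 1 over both libraries, and GPX8 and HMOX1 were listed at 0 in both. The other 9 had no entry under their own symbol. Names from a reference table (assembly Sscrofa11.1) led to entries for 6 of them (SOD3, GPX7, SRXN1, GSTM3, NQO2 and HMOX2), together with a second entry each for GPX8 and MGST2. GSTA2, MGST1 and MT2A were not analysed here. Entries named in this way are marked as such and stay out of the counts below.

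RNA came from follicular granulosa cells of the ovaries of Chinese Erhualian pigs, the somatic cells that surround the oocyte. Cells of the tested group received an siRNA against SMAD4, the SMAD protein shared by TGF-beta, activin and BMP signalling, and cells of the control group received NC-siRNA, the negative control. RNA of 3 individuals per group was pooled into 1 library per group, and whether the animals were the same in both groups is not stated. Neither group has a second library, so no test of the conditions and no replicate check is possible: every difference below is one between 2 libraries, and siRNA and animals cannot be told apart. Values are the deposited upper-quartile-scaled RPKM (reads per kilobase of gene, scaled by an upper quartile of the library rather than by its total reads). They can be compared between genes because they are per length.

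The values could be turned back into whole reads, which gave at least 17394711 reads on genes in the SMAD4 siRNA library and at least 17680952 in the NC siRNA library. Each ratio is SMAD4 siRNA over NC siRNA, followed in parentheses by an exact 95% interval (Clopper-Pearson) for how these reads divide. Such intervals cover counting error only, not animals or transfections, and they are too narrow in so far as reads without molecular identifiers can be copies of 1 molecule. SMAD4 itself had a value of 47.9 in the SMAD4 siRNA library and 85.0 in the NC siRNA library, a ratio of 0.563 (0.497 to 0.639). The median ratio of all measured genes was 0.966, and the sum of all values was lower in the SMAD4 siRNA library by a factor of 0.921. Small ratios therefore depend on how the libraries are scaled, so each was also read after division by that median and after rescaling both libraries to the same sum, which adds 0.12 to the log2 ratio. Granulosa markers FOXL2 (145.8 in the SMAD4 siRNA and 131.8 in the NC siRNA library) and GATA4 (773.7 in the SMAD4 siRNA and 748.0 in the NC siRNA library) were present, whereas AMH, INHBB and CYP19A1 were at 0 in both, and FSHR had 7 reads in the SMAD4 siRNA and 9 in the NC siRNA library. Listed zeros say nothing of expression here.

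As background, superoxide dismutases turn superoxide into hydrogen peroxide, which catalase, glutathione peroxidases and peroxiredoxins reduce to water. Glutathione peroxidases draw on glutathione and most peroxiredoxins on thioredoxin, and both are reduced again by NADPH-dependent reductases. NRF2 induces many of these genes when oxidants or electrophiles keep KEAP1 from targeting it for degradation. In the follicle, granulosa cells produce oxidants during steroid synthesis and around ovulation, and oxidant load is tied to follicular atresia.

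Oxidant-defence genes were strongly expressed, 19 of the 32 being in the top 10% of genes above 0 in both libraries, and the one ratio past 2-fold, 2.72 for GSTA1, rested on 4 reads in all. On the log2 scale of value + 1, which understates changes of low values, 0 members were higher by at least 2-fold, beside 7.17% of all 16609 measured genes, and 0 were lower, beside 6.68%. Few genes with many reads reach 2-fold: among the 9664 genes with at least 100 reads the shares were 1.32% higher and 1.12% lower. A smaller threshold was at least 25% higher, which on the log2 scale equals at least 20% lower. By it, 2 of 32 were higher, beside 21.7% of all measured genes, and 6 were lower, beside 25.2%. Among the 30 members with at least 100 reads, 1 was higher, beside 11.5% of genes with as many reads, and 5 were lower, beside 18.9%. The members' median log2 ratio was -0.07, beside -0.05 for all measured genes, with 11 of 32 above 0, beside 45.5% of all measured genes, and 21 below, beside 54.5%. Among those with at least 100 reads, 10 of 30 were above 0, beside 42.1%, and 20 below, beside 57.9%. Among those with at least 1000 reads, 7 of 23 were above 0, beside 36.5%, and 16 below, beside 63.5%, and 0 were higher by at least 25%, beside 4.69%.

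**Figure D1:**
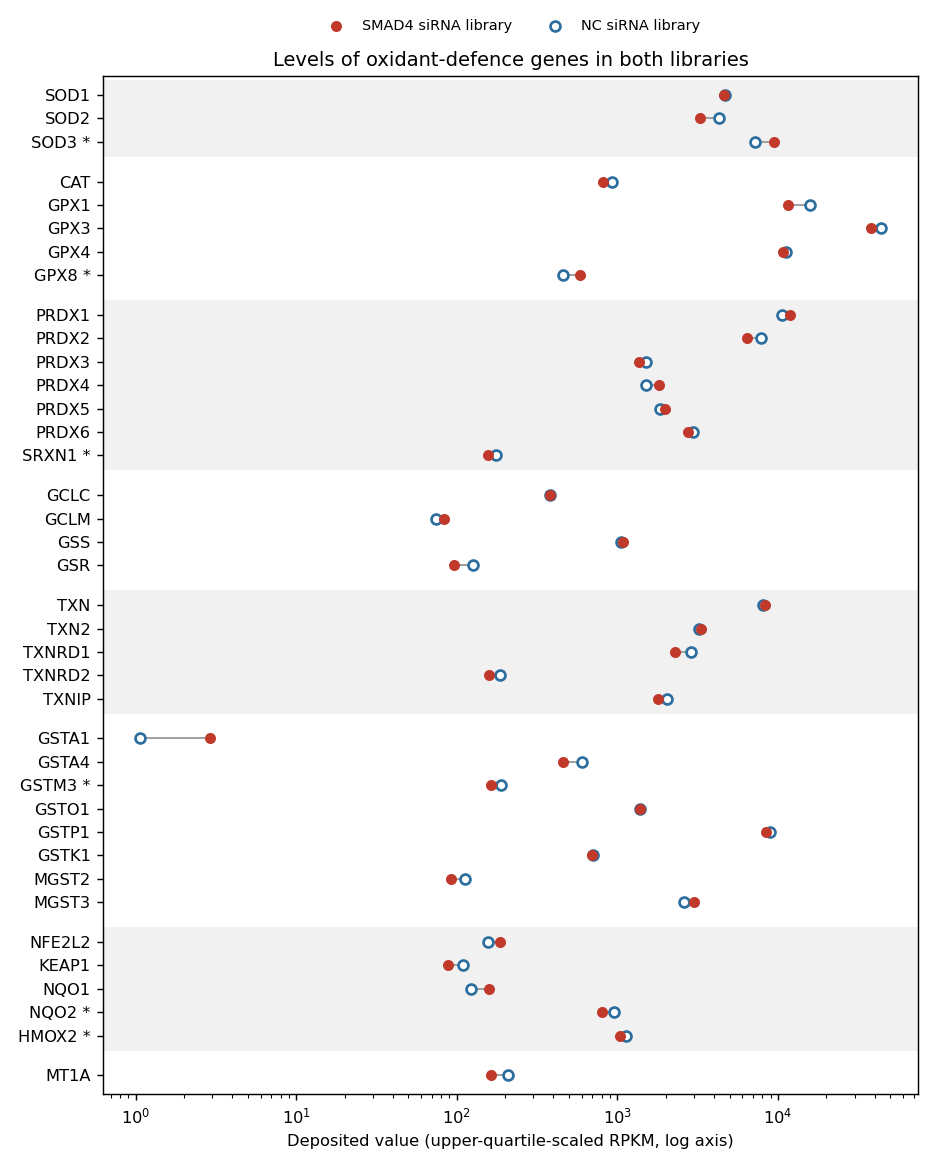
Deposited value (upper-quartile-scaled RPKM, logarithmic x axis) of each oxidant-defence gene above 0 in the SMAD4 siRNA library (filled red) and the NC siRNA library (open blue), with functional groups in shaded blocks and 1 library per group. Genes with an asterisk are entries named from the reference table. The pairs lie close together over a wide range of levels, with GPX3 at the top at 37924 and 44090.

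Counting intervals separated small differences in both directions. As deposited, 6 of 32 members had an interval wholly above 1, beside 12.7% of all measured genes, and 12 had one wholly below 1, beside 21.5%. Intervals narrow with reads, and the members had a median of 3698 reads over both libraries. Among genes with at least 1000 reads, 4 of 23 members lay wholly above 1, beside 19.8%, and 11 lay wholly below, beside 46.6%. Division by the median and rescaling to the same sum both raise every ratio, so no interval above 1 as deposited could lose that place. The same 6 members were thus above 1 under all 3 scalings: PRDX1, PRDX4, PRDX5, MGST3, NFE2L2 and NQO1. Another 7 stayed below 1 under all 3: SOD2, GPX1, GPX3, PRDX2, GSR, TXNRD1 and GSTA4. Among genes with at least 100 reads, 17.6% and 19.6% did so above and below. The 30 members with as many reads held all 13, which is near those shares. For all measured genes the shares were 12.7% and 13.4%, and with at least 1000 reads 19.8% and 27.7%. For 12 of the remaining members the call depended on the scaling, and for 7 the interval included 1 throughout.

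**Figure D2:**
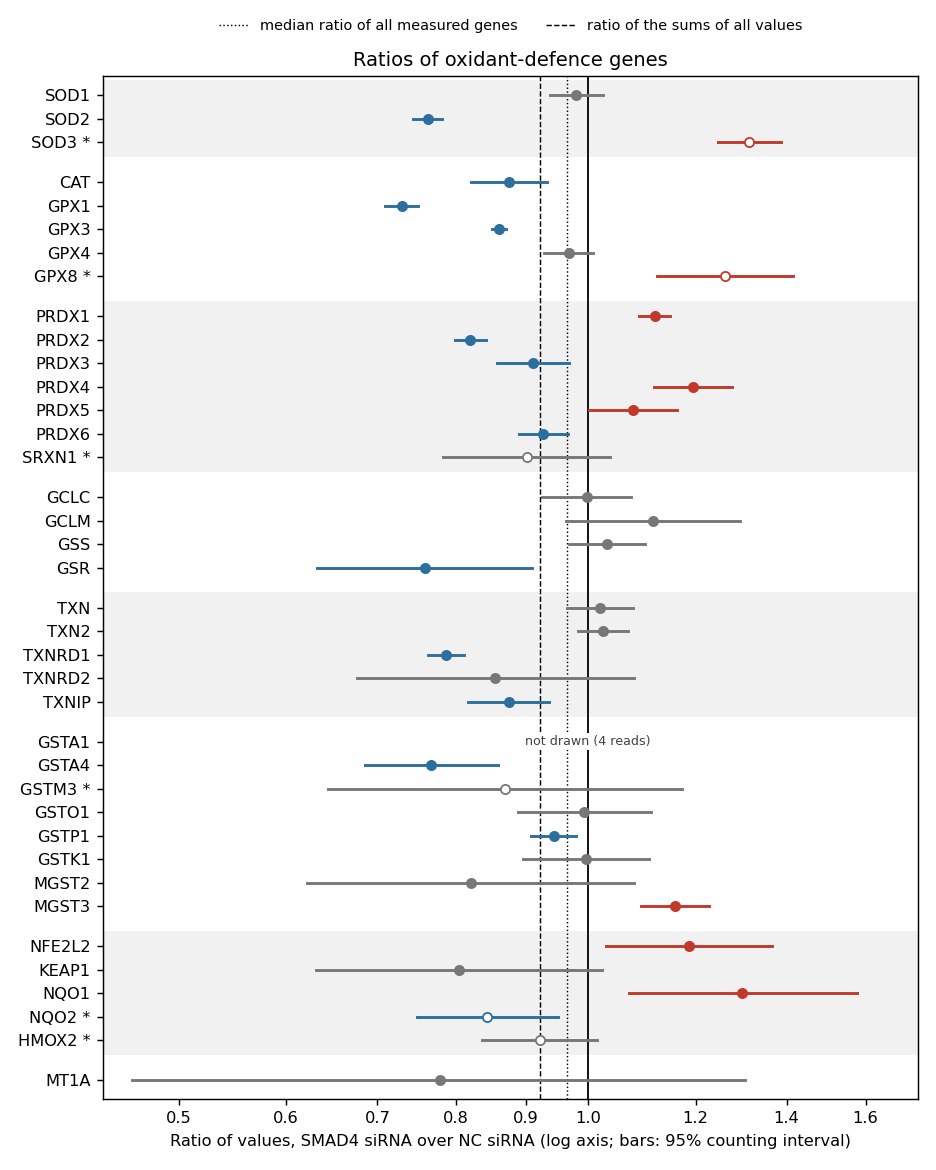
Ratio of values, SMAD4 siRNA over NC siRNA (logarithmic x axis), with 95% counting intervals as bars: red wholly above 1, blue wholly below 1, grey including 1, open points for entries named from the reference table. The dotted line marks the median ratio of all measured genes (0.966) and the dashed line the ratio of the sums of all values (0.921). GPX1, SOD2 and TXNRD1 stand left of both lines and PRDX1, PRDX4 and MGST3 right of 1.

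The 3 superoxide dismutases, 1 each of cytosol, mitochondrion and cell exterior, had ratios near 1, below 1 and above 1. SOD1, the cytosolic copper-zinc enzyme, had a value of 4603 in the SMAD4 siRNA library and 4693 in the NC siRNA library, a ratio of 0.981 (0.938 to 1.025). SOD2, the manganese enzyme of the mitochondrial matrix, had 3283 in the SMAD4 siRNA library and 4307 in the NC siRNA library, a ratio of 0.762 (0.744 to 0.781). It remained lower after rescaling to the same sum, at 0.828. The cytosolic and the mitochondrial enzyme thus stood at 1.402 to 1 within the SMAD4 siRNA library and at 1.09 to 1 within the NC siRNA library. SOD3, the secreted enzyme that binds to matrix, has an entry named from the reference table. Its value was the highest of the 3 dismutases, 9520 in the SMAD4 siRNA library and 7244 in the NC siRNA library, a ratio of 1.31 (1.247 to 1.39).

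Glutathione peroxidases carried the largest share of the members' summed value, 47.3% in the SMAD4 siRNA library and 50.7% in the NC siRNA library, and GPX1 and GPX3 were lower in the SMAD4 siRNA library under all 3 scalings. GPX3, the secreted peroxidase known from plasma, had 37924 in the SMAD4 siRNA library and 44090 in the NC siRNA library, ranks 41 and 36 of all genes. It alone made up 29.8% of the members' summed value in the SMAD4 siRNA library and 31.4% in the NC siRNA library. The ratio was 0.860 (0.850 to 0.870), and 0.934 after rescaling to the same sum. GPX1, the main cytosolic peroxidase, had 11595 in the SMAD4 siRNA library and 15899 in the NC siRNA library. Its ratio of 0.729 (0.709 to 0.750) was the lowest of all 32 members. GPX4, which reduces lipid hydroperoxides within membranes and guards against ferroptosis, had 10819 in the SMAD4 siRNA library and 11175 in the NC siRNA library, a ratio of 0.968 (0.929 to 1.01).

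GPX4 was closer to GPX1 in level in the SMAD4 siRNA library. The value of GPX4 over that of GPX1 was 0.933 in the SMAD4 siRNA library and 0.703 in the NC siRNA library, a quotient of 1.33 (1.26 to 1.395) that no scaling of a library can alter. This pair and the other pairs of genes compared below were chosen after the values were seen, so their quotients and intervals are descriptions. CAT, the peroxisomal catalase, was far below them at 815.3 in the SMAD4 siRNA library and 931.6 in the NC siRNA library. Its ratio was 0.875 (0.821 to 0.933), or 0.950 after rescaling, where the interval took in 1. GPX8, a peroxidase of the endoplasmic reticulum, was listed at 0 under its own symbol, while its entry named from the reference table had 581.8 in the SMAD4 siRNA library and 461.4 in the NC siRNA library. That ratio was 1.26 (1.12 to 1.41). The entry named GPX7 in the same way, its close relative, was listed at 0 in both libraries.

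As deposited, 3 of the 6 peroxiredoxins had an interval above 1, beside 19.8% of genes with at least 1000 reads, which all 6 had, and 3 had one below, beside 46.6%. PRDX2 stayed below under all 3 scalings. PRDX1, PRDX4 and PRDX5 were above under all 3, since both other scalings raise every ratio. Their summed value was the same in both libraries to within 1 part in 100: 26268 in the SMAD4 siRNA library and 26321 in the NC siRNA library, a ratio of 0.998. Set to the same sum, as TPM values are, the peroxiredoxins held 2021 TPM in the SMAD4 siRNA library and 1865 TPM in the NC siRNA library. PRDX1, the most abundant and cytosolic, had 11907 in the SMAD4 siRNA library and 10632 in the NC siRNA library, a ratio of 1.12 (1.09 to 1.15). PRDX2, the other abundant cytosolic form and a major protein of red blood cells, had 6443 in the SMAD4 siRNA library and 7862 in the NC siRNA library, a ratio of 0.820 (0.798 to 0.842). The value of PRDX1 over that of PRDX2 was therefore 1.85 within the SMAD4 siRNA library and 1.35 within the NC siRNA library, a quotient of 1.37 (1.32 to 1.42). Red cell markers were listed at low values or at 0, and listed zeros say nothing of expression here. Of 7 entries 3 were listed at 0 in both libraries, and their summed value was 9.99 in the SMAD4 siRNA library and 9.42 in the NC siRNA library. Whether red cells bear on the PRDX2 ratio was not tested.

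PRDX4, the peroxiredoxin of the endoplasmic reticulum, had 1805 in the SMAD4 siRNA library and 1510 in the NC siRNA library, a ratio of 1.19 (1.12 to 1.28). PRDX3, its mitochondrial counterpart, had 1370 in the SMAD4 siRNA library and 1505 in the NC siRNA library, a ratio of 0.911 (0.857 to 0.968). PRDX4 over PRDX3 was 1.32 in the SMAD4 siRNA library and 1.004 in the NC siRNA library, a quotient of 1.31 (1.199 to 1.44). PRDX5, found in mitochondria, peroxisomes and cytosol, had a ratio of 1.08 (1.002 to 1.16), just above 1 at its lower bound. PRDX6, which uses glutathione in place of thioredoxin, had 0.927 (0.889 to 0.967). The calls of PRDX3 and PRDX6 ended under both other scalings, and after rescaling to the same sum their ratios were 0.989 and 1.01. SRXN1, sulfiredoxin, which repairs over-oxidised peroxiredoxins and is an NRF2 target, is an entry named from the reference table. It had 157.5 in the SMAD4 siRNA library and 174.8 in the NC siRNA library, a ratio of 0.901 (0.782 to 1.04).

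Glutathione synthesis differed little, and the reductase was lower. GCLC, the catalytic subunit of the rate-limiting ligase, had 378.1 in the SMAD4 siRNA library and 378.9 in the NC siRNA library, a ratio of 0.998 (0.925 to 1.08). GCLM, the modifier subunit, had 83.3 in the SMAD4 siRNA library and 74.7 in the NC siRNA library, a ratio of 1.12 (0.964 to 1.29). GSS, which adds the final glycine, had 1086 in the SMAD4 siRNA library and 1052 in the NC siRNA library, a ratio of 1.033 (0.968 to 1.101). All 3 had intervals that took in 1 as deposited. After rescaling to the same sum the ratios were 1.08, 1.21 and 1.12, with intervals wholly above 1. GSR, the reductase that returns oxidised glutathione to its reduced form, had only 96.1 in the SMAD4 siRNA library and 126.7 in the NC siRNA library, from at least 223 and 267 reads. Its ratio was 0.759 (0.632 to 0.910), and 0.823 after rescaling.

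In the thioredoxin system the cytosolic reductase was lower, and the thioredoxins were near 1 as deposited. TXN, cytosolic thioredoxin, had 8297 in the SMAD4 siRNA library and 8130 in the NC siRNA library, a ratio of 1.02 (0.966 to 1.08). TXN2, the mitochondrial form, had 3321 in the SMAD4 siRNA library and 3237 in the NC siRNA library, a ratio of 1.026 (0.983 to 1.07). After rescaling to the same sum, both thioredoxins had intervals wholly above 1, at 1.11 (1.05 to 1.17) for TXN and 1.11 (1.07 to 1.16) for TXN2. TXNRD1, the cytosolic reductase and an NRF2 target, had 2275 in the SMAD4 siRNA library and 2895 in the NC siRNA library, a ratio of 0.786 (0.762 to 0.810). It remained lower under both other scalings. TXNRD2, the mitochondrial reductase, had 158.3 in the SMAD4 siRNA library and 185.2 in the NC siRNA library, a ratio of 0.855 (0.676 to 1.08) that counting error does not separate from 1. TXNIP, which binds and inhibits thioredoxin and follows glucose supply, had 1781 in the SMAD4 siRNA library and 2038 in the NC siRNA library, a ratio of 0.874 (0.816 to 0.936), or 0.949 after rescaling, where its interval took in 1.

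Ratios of 2 genes within a library do not depend on its scaling, so 10 pairs of partners or isozymes were compared in that way. The pairs and which gene is on top were chosen after the values were seen, so the shared direction of the quotients is no finding. For the same reason, an interval wholly above 1 only describes a chosen pair. TXN over TXNRD1 was 3.65 in the SMAD4 siRNA library and 2.81 in the NC siRNA library, a quotient of 1.30 (1.22 to 1.38). GSS over GSR was 11.3 in the SMAD4 siRNA library and 8.30 in the NC siRNA library, a quotient of 1.36 (1.12 to 1.65). For TXN2 over TXNRD2 the quotient was 1.2004 (0.946 to 1.52), and for GCLM over GCLC 1.12 (0.948 to 1.32), both with intervals that took in 1.

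**Figure D3:**
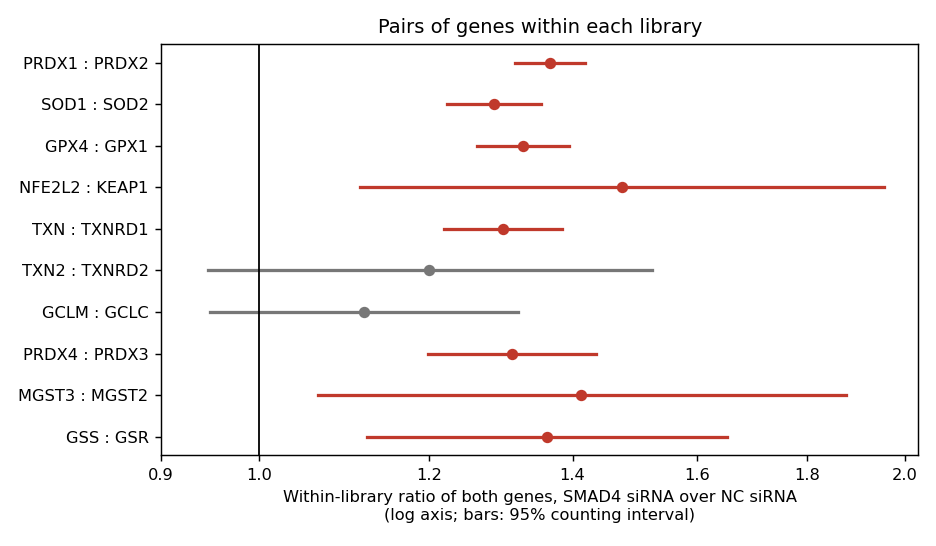
Quotient of the ratio of 2 genes within the SMAD4 siRNA library over the same ratio within the NC siRNA library (logarithmic x axis), with exact conditional 95% counting intervals of the odds ratio as bars (red wholly above 1, grey including 1). PRDX1 over PRDX2 is at 1.37 and SOD1 over SOD2 at 1.29, while the intervals of TXN2 over TXNRD2 and GCLM over GCLC include 1. The pairs and which gene is on top were chosen after the values were seen.

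Glutathione transferases, which couple glutathione to electrophiles, gave mixed ratios. GSTP1, the most abundant, had 8438 in the SMAD4 siRNA library and 8940 in the NC siRNA library, a ratio of 0.944 (0.909 to 0.980) that turned to 1.02 after rescaling. GSTA4, known for conjugating the lipid peroxidation product 4-hydroxynonenal, had 460.2 in the SMAD4 siRNA library and 600.0 in the NC siRNA library. Its ratio was 0.767 (0.685 to 0.859), the lowest among transferases, and below 1 under all 3 scalings. GSTO1 at 0.993 (0.888 to 1.11) and GSTK1 at 0.997 (0.896 to 1.11) were the transferases closest to 1. MGST3, a microsomal enzyme with peroxidase activity, had 3022 in the SMAD4 siRNA library and 2609 in the NC siRNA library, a ratio of 1.16 (1.09 to 1.23). MGST2, a relative that can make leukotriene C4, had 92.0 in the SMAD4 siRNA library and 112.3 in the NC siRNA library, a ratio of 0.820 (0.621 to 1.08), and its second entry was listed at 0. GSTM3, named from the reference table, had 0.870 (0.644 to 1.17). GSTA1 had 3 reads in the SMAD4 siRNA library and 1 in the NC siRNA library, a ratio of 2.72 (0.219 to 143). Some alpha-class transferases are near-identical copies in mammals, and how the authors' counting divided reads among those is not known.

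NRF2 and its inhibitor lay on opposite sides of 1. NFE2L2, the gene of NRF2, had 186.3 in the SMAD4 siRNA library and 157.0 in the NC siRNA library, a ratio of 1.19 (1.032 to 1.37). KEAP1 had 88.3 in the SMAD4 siRNA library and 109.9 in the NC siRNA library, a ratio of 0.804 (0.631 to 1.02). The value of NFE2L2 over that of KEAP1 was 2.11 within the SMAD4 siRNA library and 1.43 within the NC siRNA library, a quotient of 1.48 (1.11 to 1.96) on at least 131 reads per entry and library. This pair too was chosen after its values were seen, so the quotient is a description. NQO1, the quinone reductase widely used as a readout of NRF2, had 158.2 in the SMAD4 siRNA library and 121.9 in the NC siRNA library. Its ratio of 1.30 (1.07 to 1.58) was the highest among the 30 members with at least 100 reads under their own symbol; SOD3, named from the reference table, had 1.31. Other members that NRF2 is known to induce had different ratios: TXNRD1 was at 0.786 and GCLC at 0.998, and GCLM was at 1.12 with an interval that took in 1.

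NQO2, a relative of NQO1 that takes electrons from dihydronicotinamide riboside, is an entry named from the reference table. It had 799.0 in the SMAD4 siRNA library and 947.3 in the NC siRNA library, a ratio of 0.843 (0.748 to 0.950). After rescaling to the same sum the ratio was 0.915, and its interval took in 1. HMOX1, the inducible haem oxygenase, was listed at 0 in both libraries. HMOX2, the constitutive form, listed as HO2, had 1040 in the SMAD4 siRNA library and 1129 in the NC siRNA library, a ratio of 0.921 (0.836 to 1.02). MT1A, a metallothionein that binds zinc and copper, had 162.8 in the SMAD4 siRNA library and 209.2 in the NC siRNA library. Its ratio was 0.778 (0.462 to 1.31) on at least 30 and 35 reads, and metallothioneins too are near-identical copies.

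**Figure D4:**
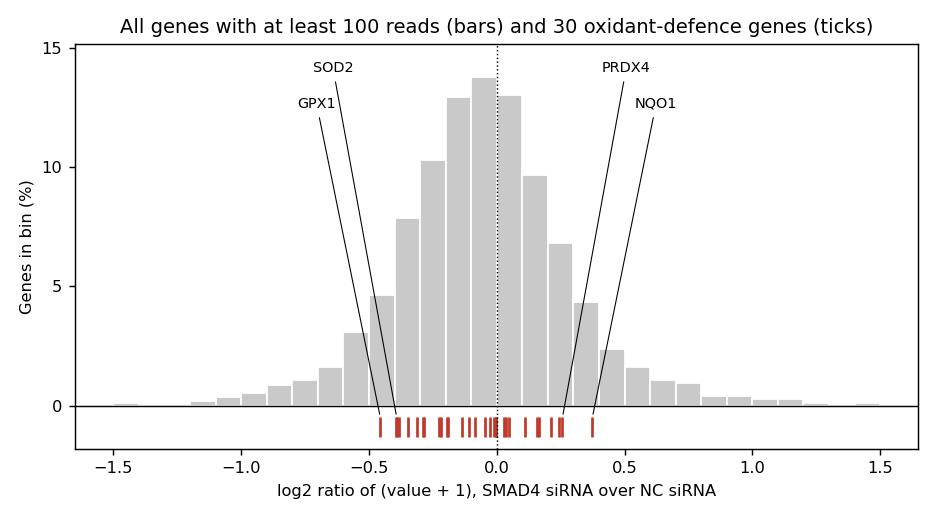
Share of the 9664 genes with at least 100 reads in bins of the log2 ratio of value + 1, SMAD4 siRNA over NC siRNA (grey bars), with the 30 oxidant-defence genes of as many reads as red ticks below. The ticks lie within the body of the bars, from GPX1 at -0.46 to NQO1 at 0.37.

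By compartment, 4 members belong to mitochondria (SOD2, PRDX3, TXN2 and TXNRD2), and 3 of them were below 0 on the log2 scale, beside 54.5% of all measured genes and 63.5% of those with at least 1000 reads. Of the 4, 2 had an interval below 1 as deposited, beside 21.5% and 46.6%, and SOD2 alone kept it under all 3 scalings. The members of several compartments, PRDX5, GSR and GSTK1, were not counted there, with 1 above 0 and 2 below. PRDX4 and the GPX8 entry named from the reference table, both assigned to the endoplasmic reticulum, were above 1. Of all measured genes, 45.5% were above 0. Members assigned to membranes, microsomal MGST3 among them, were not counted there and lay on both sides of 1. MGST3 was at 1.16, MGST2 at 0.820 and HMOX2, named from the reference table, at 0.921. The intervals of MGST2 and HMOX2 took in 1. The shared direction of PRDX4 and GPX8 thus depends on how members were assigned. Genes of the endoplasmic reticulum that are no members were not counted, and SELENOK, 1 of them, was at 0.821 (0.748 to 0.900). NNT, the mitochondrial transhydrogenase that makes NADPH for the mitochondrial reductases, is no member but belongs to the list of NADPH supply. It had 393.8 in the SMAD4 siRNA library and 552.5 in the NC siRNA library, a ratio of 0.713 (0.661 to 0.769). Of the same list, mitochondrial IDH2 was at 0.837 (0.800 to 0.874) and mitochondrial NADK2 at 1.51 (1.11 to 2.09). The compartments were compared after the values were seen and hold few genes.

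Genes around the members were read from 6 lists, whose counts stand beside 45.5% of all measured genes above 0, 21.7% higher by at least 25% and 25.2% lower by at least 20%. With at least 100 reads those shares were 42.1%, 11.5% and 18.9%. In NADPH supply, with 19 measured entries, 10 were above 0, 1 was higher by at least 25% and 1 lower by at least 20%. PGD, an enzyme of the pentose phosphate pathway, had a ratio of 0.868 (0.824 to 0.915), IDH2, the mitochondrial isocitrate dehydrogenase, 0.837 (0.800 to 0.874) and ME1, malic enzyme, 0.844 (0.770 to 0.924). NADK2, the mitochondrial NAD kinase, was highest at 1.51 (1.11 to 2.09).

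In the glutathione cycle and glutaredoxin list, 12 of 24 measured entries were above 0, 3 were higher by at least 25% and 4 lower by at least 20%. GLRX, glutaredoxin, which removes glutathione from proteins, had 1464 in the SMAD4 siRNA library and 1071 in the NC siRNA library, a ratio of 1.37 (1.29 to 1.46). CHAC1, which degrades glutathione, had 1.27 (1.18 to 1.36). ABCC1, an exporter of glutathione conjugates and of oxidised glutathione, had 1261 in the SMAD4 siRNA library and 1882 in the NC siRNA library, a ratio of 0.670 (0.648 to 0.693). SLC7A11, the cystine importer, was listed at 0 in both libraries under both of its entries.

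For partners and other targets of NRF2, 12 of 25 measured entries were above 0, 4 were higher by at least 25% and 6 lower by at least 20%. BLVRB, biliverdin reductase B, had a ratio of 1.36 (1.27 to 1.46) and AKR1B1, aldose reductase, 1.34 (1.27 to 1.41). EPHX1, the microsomal epoxide hydrolase, had 0.714 (0.674 to 0.757), the ligase subunit BTRC 0.747 (0.645 to 0.865), and the NRF2 competitor BACH1 0.749 (0.556 to 1.01). The iron stores FTH1, with a ratio of 0.898 (0.892 to 0.905), and FTL, with 0.849 (0.844 to 0.855), were the most abundant genes of the list.

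The list of thioredoxin folds and sulfoxide repair had 6 of 22 measured entries above 0, with 0 higher by at least 25%, 5 lower by at least 20% and a median log2 ratio of -0.13. Among those with at least 100 reads, SELENOP was lowest at 0.752 (0.691 to 0.819), and SESN1 was at 0.779 (0.606 to 1.001). CCS, the copper chaperone of SOD1, came next at 0.782 (0.629 to 0.971). After rescaling to the same sum CCS was at 0.849, and its interval took in 1. SESN2, a stress-induced sestrin, was highest at 1.13 (1.04 to 1.23). Among oxidant sources 6 of 17 were above 0. NOX4, the NADPH oxidase that makes hydrogen peroxide and is a known TGF-beta target, had 47.4 in the SMAD4 siRNA library and 70.7 in the NC siRNA library, a ratio of 0.670 (0.552 to 0.813). MAOB, a monoamine oxidase of the mitochondrial outer membrane, had 0.740 (0.691 to 0.791), and its isoform MAOA 1.44 (1.17 to 1.78). Metal and haem handling, which includes the member MT1A, had 7 of 14 above 0, with the zinc and iron importer SLC39A14 lowest at 0.678 (0.650 to 0.707) and the copper chaperone COX17 highest at 1.14 (1.04 to 1.251) among those with at least 100 reads.

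**Figure D5:**
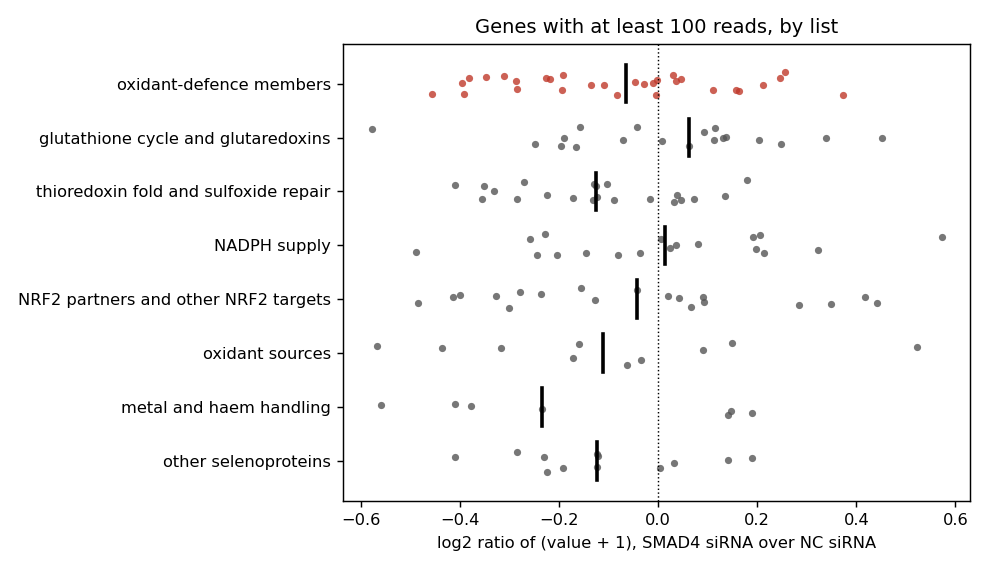
log2 ratio of value + 1, SMAD4 siRNA over NC siRNA, of single genes with at least 100 reads (points, spread vertically for legibility) and their median (black bars). The first row holds the 30 oxidant-defence members and the other rows the genes of each list that are not members. Every row has points on both sides of 0, and the medians run from -0.23 for metal and haem handling to 0.06 for the glutathione cycle.

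Markers of other cells were given beside these results because the RNA is from bulk cells, where fewer cells of a type and less RNA per cell cannot be told apart. Theca and stroma markers had 6 of 7 measured entries below 0 as deposited, with PDGFRA counted under both of its entries. Of all measured genes 54.5% were below 0, and of those with at least 1000 reads 63.5%. The markers had a median log2 ratio of -0.33 and a summed value of 45268 in the SMAD4 siRNA library and 53824 in the NC siRNA library. Most of that sum came from COL3A1, at a ratio of 0.768 (0.763 to 0.774), and COL1A1, at 1.06 (1.01 to 1.11). CYP17A1 and INSL3, which define theca cells, were listed at 0 in both libraries. Endothelial markers summed to 341.2 in the SMAD4 siRNA library and 444.6 in the NC siRNA library over 6 entries, nearly all of it PECAM1 and ERG. VWF had 1.34 in the SMAD4 siRNA library and 1.72 in the NC siRNA library. KDR went the other way, with 2.21 in the SMAD4 siRNA library and 0.934 in the NC siRNA library, and TEK and TIE1 were at 0. Leukocyte markers summed to 578.3 in the SMAD4 siRNA library and 589.0 in the NC siRNA library over 9 entries, nearly all of it CD14, with CD3E at 0. Whether the differences in these marker sums bear on the lower ratios of GPX3, GPX1 and SOD2 was not tested.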

How the data were processed

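Libraries came from total RNA (Ion Total RNA-Seq Kit, per the labels' protocols) and were read on an Ion Torrent Proton, per the design text. The authors deposited RPKM values scaled by the upper quartile, as the deposited table names say. No aligner, counter, genome build or annotation is given in the sources used here. With 1 divisor per library, 980 for SMAD4 siRNA and 890 for NC siRNA, all 18428 genes above 0 gave whole reads at a whole length of up to 40000 bases (relative tolerance 2e-09, absolute tolerance 1e-06). The smallest whole numbers were kept, so reads are lower bounds and intervals may be too wide. For a gene of median length, 1648 bases, 1.62 reads in the SMAD4 siRNA and 1.47 in the NC siRNA library make a value of 1.

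Computed here, in Python 3.11.15 with scipy 1.17.1, were log2 ratios of value + 1 where the mean value reached 1, plain ratios, and exact 95% intervals. The steps were tested on simulated data. All members are named, with up to 3 genes from either end of each other list among those with at least 100 reads. PGD, FTH1, FTL, SLC7A11, the compartments, the pairs and the selenoproteins were chosen after their values were seen. The members and lists were chosen with earlier results of these data known. Promoter motifs were not analysed here.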

Additional observations from a re-analysis of the deposited data

How the results depend on the processing

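With 1 library per group no replicate could be left out. Rescaling both libraries to the same sum moved most values: the members' median log2 ratio became 0.053 in place of -0.07, 18 members were above 0 in place of 11, 1 was higher by at least 2-fold (GSTA1), 5 were higher by at least 25% and 1 lower by at least 20%, and 13 intervals lay wholly above 1 and 7 wholly below. PRDX6 turned to 0.0095 and GSTP1 to 0.035 on the log2 scale, and 18 other members left their counting interval, as 6 did under centring on the median of all genes. These shifts follow from the factor itself. With a pseudocount of 0.1, 1 member (GSTA1) was higher by at least 2-fold. Of the 2 members higher by at least 25%, 1 was left with a mean value of at least 5 and 1 with at least 100 reads, since GSTA1 drops out. Among settings chosen after seeing the data, a minimum of 1000 reads left 0 such members and 7 above 0, and adding entries named from the reference table gave 4, with SOD3 and GPX8. Over all genes, 466 were higher and 437 lower by at least 2-fold with a pseudocount of 5, 572 and 546 with a mean value of at least 5, and 128 and 108 with at least 100 reads. With 99% intervals, 4 members lay wholly above 1 and 12 below, and with no minimum on the mean value the members' counts stayed as reported. All members stayed within their intervals under both other pseudocounts. SMAD4 stayed lower under both pseudocounts, centring and rescaling. Low reads limit GSTA1, MT1A, MGST2, TXNRD2 and KEAP1.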

Other observations

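Selenoproteins carry selenocysteine in their active site and include the members GPX1, GPX3, GPX4, TXNRD1 and TXNRD2, all of which had ratios below 1 as deposited. GPX4 was at 1.05 (1.01 to 1.095) after rescaling both libraries to the same sum, and the interval of TXNRD2 took in 1 under all 3 scalings. The set of 25 selenoprotein genes was drawn up after those ratios had been seen, so it is a description. Of 19 measured genes, 15 were below 0 on the log2 scale, and of the 14 that are not members 10 were, beside 54.5% of all measured genes and 63.5% of genes with at least 1000 reads. Among the 14, 7 had a counting interval wholly below 1, beside 21.5% of all measured genes and 46.6% of those with at least 1000 reads, which 11 of the 14 had. Another 2 lay wholly above, beside 12.7% and 19.8%. SELENOP, the selenium carrier of plasma, had 483.4 in the SMAD4 siRNA library and 642.4 in the NC siRNA library, a ratio of 0.752 (0.691 to 0.819). SELENOK, of the endoplasmic reticulum, had 0.821 (0.748 to 0.900) and SELENOO, of mitochondria, 0.852 (0.787 to 0.922). SEPHS2, which makes the selenium donor for selenocysteine, had 0.875 (0.795 to 0.963). After rescaling both libraries to the same sum, SELENOO was at 0.925 and SEPHS2 at 0.949, and both intervals took in 1. SELENOF at 1.102 (1.06 to 1.14) and SELENOH at 1.14 (1.04 to 1.253) were higher. SELENOM, the most abundant of those that are not members, was at 0.919 (0.887 to 0.951) as deposited and at 0.997 after rescaling both libraries to the same sum, and SELENOW at 1.003 (0.964 to 1.04) became 1.09.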
